A study of Homo sapiens with 9 samples.

Results

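The regions described here are 1336 stretches of the genome whose chromatin was more accessible after treatment with either of 2 antisense oligonucleotides (ASO2 and ASO10) than after a control oligonucleotide (NCA). They were selected on their measured values from 148797 regions counted by ATAC-seq, an assay in which the transposase Tn5 cuts open chromatin and the cut fragments are sequenced. Levels are given as CPM, the counts of a region per 1000000 counts of its library. A region was taken when its mean over all 9 libraries was at least 2 CPM, when each ASO2 and each ASO10 library lay above each NCA library, and when the ASO2 mean and the ASO10 mean were each at least 1.5 times the NCA mean. Of the 72424 regions with a mean of at least 2 CPM, 1.84% met these limits. In the same 72424 regions, 2945 had all 6 oligonucleotide libraries above all 3 NCA libraries, which is 4.07%. The fold limit therefore removed more than it kept. The mirrored rule gave 827 regions that were lower under both oligonucleotides, which serve below as a comparison set. Because these limits defined the regions, their height over NCA is a description and not a finding.

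All libraries came from SK-N-BE(2)c, an established human neuroblastoma cell line with an amplified MYCN oncogene, and there were 3 libraries per group. ASO2 and ASO10 are antisense oligonucleotides against NESPR, a long noncoding RNA, and NCA is the negative control oligonucleotide. Every group, the control included, was transfected with 100 nM oligonucleotide with a cationic lipid reagent and collected 48 h later, so no untransfected cells enter the comparison. No label states that the 3 libraries of a group came from separate cultures, and the p-values measure only the spread between these libraries, which may be technical. Library totals ranged from 7293565 to 10948569 counts. At the ends of 10 neuroblastoma marker genes, 9 had a region, with a median of 21.1 CPM under NCA and 4995 CPM at MYCN; TH, which encodes tyrosine hydroxylase, had none within 1 kb. The medians were 5.39 CPM for 6 fibroblast markers, 1.59 CPM for 6 immune markers and 0.608 CPM for 6 epithelial markers. Summed over each of these 3 marker lists, the levels were 36.6, 15.1 and 5.59 CPM under NCA, 41.7, 14.8 and 5.71 CPM under ASO2, and 33.6, 14.1 and 5.74 CPM under ASO10. Their part in the results was not tested.

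Open chromatin falls into promoters, where transcription starts and which are often open in many cell types, and distal elements such as enhancers, which differ more between cell types and can act over long distances on the same chromosome. Large stretches with few genes, and the bodies of very long neuronal genes, are in many cells packed in closed chromatin at the nuclear periphery. The gene nearest to a distal region is a landmark for its position and not evidence of which gene it acts on.

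Promoters were the exception among the gained regions. Only 10 of 1336 (0.749%) overlapped a promoter window, against 15.8% of the 72424 regions. The 35115 windows of RefSeq's table for GRCh38.p14 run from 250 bases before to 50 bases after a gene's start. The contrast depended on level. At a mean of 2 to 5 CPM the share was 0.915% of gained and 3.18% of all regions. It was 0.207% and 11.9% at 5 to 10 CPM, and 1.52% and 41.7% at 10 to 35 CPM. The 4 of these 10 promoters whose regions had the highest mean CPM are shown, since they are where a gained region can be read against a start site. Each sequence is the 250 bases before the start, 5′ to 3′ on the gene's strand, and capitals mark matches to any of the searched motifs. DLG4 encodes the postsynaptic scaffold PSD-95 and its stretch lies at chr17:7205188-7205437 on the minus strand. TAF6L encodes a subunit of a histone acetyltransferase complex and its stretch lies at chr11:62771146-62771395 on the plus strand. LOC107984544 is a long noncoding RNA at chr12:91309137-91309386 on the plus strand, and ASPHD2, named for an aspartate beta-hydroxylase domain, has its stretch at chr22:26429010-26429259 on the plus strand.
DLG4: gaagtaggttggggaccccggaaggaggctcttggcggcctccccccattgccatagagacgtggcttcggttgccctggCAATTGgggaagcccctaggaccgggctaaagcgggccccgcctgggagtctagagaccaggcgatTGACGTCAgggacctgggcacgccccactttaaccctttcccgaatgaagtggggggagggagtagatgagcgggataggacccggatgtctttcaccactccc
TAF6L: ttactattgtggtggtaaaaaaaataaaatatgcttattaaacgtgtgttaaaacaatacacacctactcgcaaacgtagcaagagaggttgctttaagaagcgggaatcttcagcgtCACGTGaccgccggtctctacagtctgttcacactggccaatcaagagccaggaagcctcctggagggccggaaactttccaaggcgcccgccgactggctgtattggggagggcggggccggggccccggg
LOC107984544: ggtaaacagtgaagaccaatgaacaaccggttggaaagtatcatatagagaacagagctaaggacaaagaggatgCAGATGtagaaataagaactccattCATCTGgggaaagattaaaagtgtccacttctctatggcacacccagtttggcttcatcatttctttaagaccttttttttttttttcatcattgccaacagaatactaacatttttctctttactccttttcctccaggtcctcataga
ASPHD2: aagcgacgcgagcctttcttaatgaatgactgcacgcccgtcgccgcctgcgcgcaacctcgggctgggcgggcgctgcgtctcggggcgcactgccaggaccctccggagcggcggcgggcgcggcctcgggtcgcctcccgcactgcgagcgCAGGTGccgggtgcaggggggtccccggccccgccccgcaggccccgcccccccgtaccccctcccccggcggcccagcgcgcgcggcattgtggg

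In these letters the DLG4 promoter held the palindromic CRE motif TGACGTCA and 1 E-box, TAF6L and ASPHD2 each held 1 E-box, and LOC107984544 held 2. Both strands were searched, and the motifs do not share letters in these 4 stretches. Among all 10 overlapped promoters, 7 held an E-box (CANNTG), compared with 61.8% of all promoters in the table. TGACGTCA was found in 1 of the 10 (1.65% of all promoters), the AP-1 motif TGANTCA in 1 (6.57%) and the GATA motif AGATAA in 1 (9.17%). None held TAATTA (4.35%), TGATGNAAT (0.889%) or the ETS motif CCGGAAGT (3.42%). The median GC content of the 10 was 57.6%, against 58.0% for the table. With 10 sequences these shares describe the set and distinguish it from nothing.

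The region at the DLG4 promoter, chr17:7204794-7205586, measured 10.5, 8.76 and 10.2 CPM under NCA, 13.6, 16 and 17.6 CPM under ASO2, and 16.1, 14.1 and 15.6 CPM under ASO10. At chr11:62771000-62771987, which covers the TAF6L start and the end of TMEM223, the NCA libraries held 8.68, 9.75 and 8.32 CPM, the ASO2 libraries 14.9, 12.4 and 15.9 CPM, and the ASO10 libraries 14.5, 14.4 and 14.9 CPM. Both oligonucleotide groups lay within the same range there, and the folds over NCA were 1.60 and 1.56 at DLG4 and 1.62 and 1.64 at TAF6L (ASO2 and ASO10). The remaining promoter regions with values by library were those of ASPHD2 (folds 1.56 and 1.54), IL17RC, a subunit of the interleukin-17 receptor (1.68 and 1.61), NEURL3 (1.58 and 1.64) and LOC107984544 (1.74 and 1.51). All 6 stood near the lower limit of the selection.

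Over the 1336 gained regions, the median level was 2.81, 2.84 and 3.03 CPM in the NCA libraries. It was 6.72, 7.11 and 6.85 CPM in the ASO2 libraries and 5.37, 5.11 and 5.34 CPM in the ASO10 libraries. The 3 groups do not overlap in this median, and the ASO10 libraries lay between the other groups. Together the regions took 0.506% to 0.545% of a library's counts under NCA, 1.10% to 1.18% under ASO2 and 0.895% to 0.945% under ASO10. The fold over NCA had a median of 2.23 under ASO2, with a range from 1.5 to 13.4, and a median of 1.75 under ASO10, with a range from 1.5 to 5.96. Folds above 2 were present in 855 regions under ASO2, in 328 under ASO10 and in 288 under both, and 20 regions exceeded 3 under both. Few were closed under NCA in the sense of holding no counts: 3 regions had an NCA library at 0, and none had at most 3 counts in every NCA library.

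**Figure D1:**
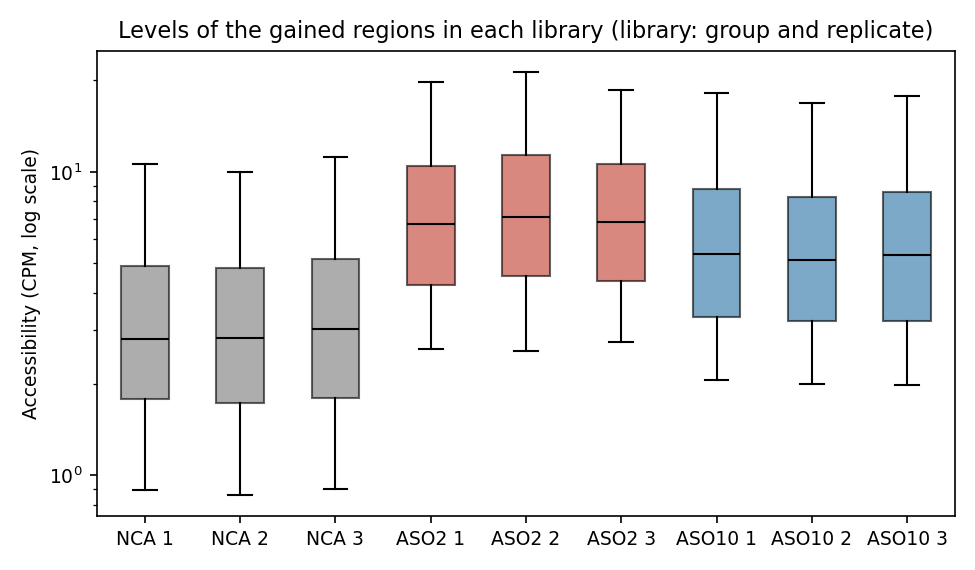
Level of the 1336 gained regions in each of the 9 libraries, in CPM on a log axis; the line is the median, the box spans the middle 50% of regions and the whiskers run from the 5th to the 95th percentile. The medians are near 3 CPM in the NCA libraries, near 7 CPM in the ASO2 libraries and just above 5 CPM in the ASO10 libraries; NCA against the others was fixed by the selection.

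All 1336 regions passed the low-count filter and entered edgeR's quasi-likelihood fit of all 9 libraries (Benjamini-Hochberg adjusted p under 0.05). Against NCA, 1054 were called higher under ASO2, where 4.8% of all 119417 tested regions were called higher. Under ASO10, 411 were called higher against 0.875% of all tested regions, and 399 were called under both against 0.458%. The selection used these contrasts, so nothing is read from the excess. The 270 regions called under neither met the rule in all 6 libraries without passing the test, which shows how far the rule and the test differ. Of the 1296 regions called for ASO10 against NCA anywhere in the genome, 80.6% were higher, and this fell to 59.3% when library offsets followed a loess curve on abundance. The 399 became 234 with limma-voom. They became 195 without NCA replicate 1 and 198 without NCA replicate 2. Without ASO10 replicate 1 they were 189, and without ASO10 replicate 3 they were 217.

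The gained regions were of middling level. Among regions with a mean of 5 to 10 CPM 2.89% were gained, against 1.5% at 2 to 3 CPM, 2.1% at 3 to 5 CPM, 1.5% at 10 to 20 CPM and 0.549% at 20 to 40 CPM. The median fold under ASO2 was 2.59 in the lowest of these bands and 1.75 in the highest, and under ASO10 it was 1.89 and 1.61. Their median width, 696.5 bases, was close to the 704 bases of all regions with at least 2 CPM.

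By the smaller of its 2 folds, the region furthest above the limit was chr9:17319614-17320173, inside the body of CNTLN, which encodes a centriole protein. It held 0.638, 0.493 and 0 CPM under NCA, 4.11, 7.52 and 3.56 CPM under ASO2, and 2.17, 2.33 and 2.23 CPM under ASO10. The NCA values rest on 5, 4 and 0 counts, so its folds of 13.4 and 5.96 have a small base. A second region, chr13:69217767-69218288, lay 482 kb from KLHL1, a kelch family gene. It measured 0.255, 0.123 and 0.899 CPM under NCA, 5.62, 2.88 and 6.85 CPM under ASO2, and 2.97, 1.11 and 2.73 CPM under ASO10. In both regions the ASO2 libraries were spread widely, and only in the CNTLN region did all of them stand above the ASO10 libraries; in the other, 1 ASO2 library at 2.88 CPM fell below the highest ASO10 library.

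The other regions among the 8 with the highest smaller fold had smaller folds of 3.55 to 4.49. The third, chr4:61474642-61475170, lay inside ADGRL3, which encodes the adhesion receptor latrophilin 3, and held 0, 1.23 and 1.46 CPM under NCA, 3.29, 4.02 and 4.93 CPM under ASO2, and 5.83, 3.78 and 2.48 CPM under ASO10. The region with the highest level among the 8 was chr5:164962216-164962800, more than 1 Mb from MAT2B, its nearest protein-coding gene, and inside the noncoding gene LINC03000. Its mean was 1.61 ± 0.673 CPM in NCA, 7.13 ± 0.900 CPM in ASO2 and 6.23 ± 1.16 CPM in ASO10 (SD, n = 3 libraries). The nearest genes of the remaining 4 were GBE1, the glycogen branching enzyme, at 808 kb; TBC1D32, with the region inside; DCN, which encodes the matrix proteoglycan decorin, at 48.1 kb; and INSC, at 263 kb. None of the 8 lay within 1 kb of a gene end.

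The 6 gained regions with the highest mean CPM were on chromosomes 2, 3 and 8, and none lay within 1 kb of a gene end either. At the top stood chr3:85846661-85848144, inside CADM2, a synaptic cell adhesion gene, 226 kb from its nearest end. Its libraries measured 26.9, 26.4 and 22.7 CPM under NCA, 42.8, 40.4 and 33.8 CPM under ASO2, and 39.3, 34.6 and 44.9 CPM under ASO10. Here both oligonucleotides gave the same level within their spread, with folds of 1.54 and 1.56. Next was chr3:148245544-148247018, 451 kb from AGTR1, the angiotensin II receptor gene, with 24.1, 15.5 and 15.8 CPM under NCA, 41.5, 45.9 and 39.3 CPM under ASO2, and 38.8, 32.9 and 37.2 CPM under ASO10. One NCA library stood above the other 2 in this region, yet below all 6 oligonucleotide libraries. The sixth, chr2:209476251-209478925, lay inside MAP2, a microtubule-associated protein gene of neuronal dendrites, with folds of 1.52 and 1.54.

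**Figure D2:**
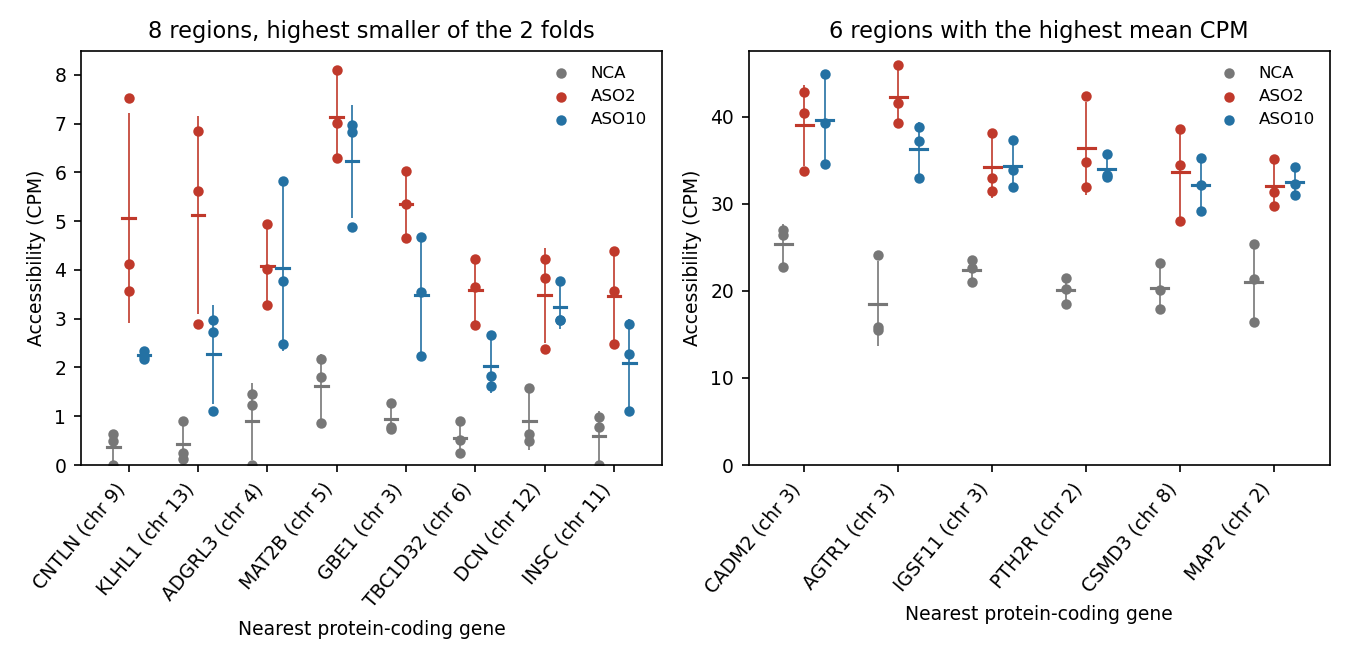
CPM in each library for the 8 gained regions with the highest smaller fold (left) and the 6 with the highest mean CPM (right), labelled by nearest protein-coding gene and chromosome; points are libraries, horizontal bars are means and vertical lines are 1 SD (n = 3). On the left NCA lies below 2.2 CPM; on the right NCA lies between 15 and 27 CPM, and the ASO2 and ASO10 points largely share one range.

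At the fold limit the rule separates regions with nearly the same values. Just inside it, chr4:101031897-101032975 in PPP3CA had NCA, ASO2 and ASO10 means of 5.00, 10.5 and 7.51 CPM. Just outside it, chr3:77053376-77054605 in ROBO2 had means of 6.22, 12.3 and 9.33 CPM, all libraries again above NCA. At the level limit, chr2:200054730-200055105 was taken with means of 1.23, 2.34 and 2.43 CPM, and chr2:211116688-211117316, nearest to ERBB4, was left out with 0.720, 3.38 and 1.89 CPM. Membership near either limit is thus a matter of small differences. Without NCA replicate 1 or NCA replicate 3, the same rule gave 2038 and 2267 regions. Of these, 1150 and 1212 were among the gained regions described here, so regions left the set as well as joined it. Without NCA replicate 2 it gave 1940, of which 1117 were among them. Fewer control libraries then had to be exceeded, but the means used by the limits changed as well. Which of these moved the counts was not tested.

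The gained regions lay far from the ends of genes, whether inside or outside gene bodies. The median distance from a gained region to the nearest end of a protein-coding gene was 127 kb, against 27.6 kb for all regions with at least 2 CPM and 31.3 kb for the regions lost under both oligonucleotides. Within 1 kb of a gene end there were 16 gained regions (1.2%, exact binomial 95% interval 0.686% to 1.94%, which covers counting error only and treats regions as independent), against 17.9% of all and 6.53% of the lost regions. More than 200 kb from any gene end there were 533 gained regions (39.9%), against 16.9% of all and 13.9% of the lost regions. The distance band of 200 kb to 1 Mb alone held 467 gained regions (35%) and 12.4% of all regions. Beyond 1 Mb there were 66 gained regions (4.94%), close to the 4.49% of all regions. No test compares these shares, as the regions were chosen on their values and neighbouring regions are not independent. The share within 1 kb of a gene end was 3.95% with a looser fold limit, midway between 1 and 1.5, 0 with a limit of 2, and 2.80% without NCA replicate 1, so it stayed below 17.9% in each of these.

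**Figure D3:**
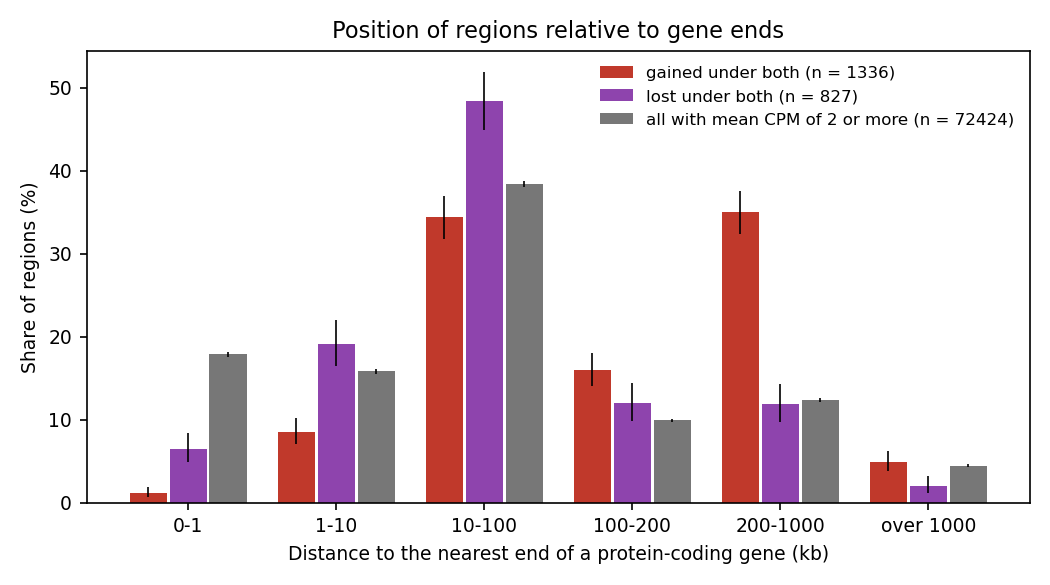
Share of regions (%) by distance to the nearest end of a protein-coding gene (kb) for the gained regions, the lost regions and all regions with a mean of at least 2 CPM; error lines are exact binomial 95% intervals. The gained regions hold 1.2% at 0 to 1 kb and 35% at 200 kb to 1 Mb, where all regions hold 17.9% and 12.4%.

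The distance was as large within bands of level. At 2 to 5 CPM the median distance was 118 kb for gained and 40 kb for all regions, at 5 to 10 CPM it was 145 and 32.2 kb, and at 10 to 35 CPM it was 140 and 4.82 kb. The distance of the gained regions was thus alike in the 3 bands, while that of all regions fell with level. The share within 1 kb of a gene end was 1.37% of gained and 5.51% of all regions at 2 to 5 CPM. It was 0.828% and 13.7% at 5 to 10 CPM, and 1.52% and 43.3% at 10 to 35 CPM.

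Inside a protein-coding gene body lay 604 gained regions (45.2%), in 455 genes, against 54.5% of all regions; the gene table gives no exons, so exons and introns were not separated. These genes were long. The median length of the gene holding a gained region was 346 kb, against 107 kb for all regions inside genes and 130 kb for lost regions. Genes longer than 500 kb held 197 of the 604 (32.6%), against 12.8% of all regions inside genes and 12.8% of lost regions. Long noncoding RNA genes were overlapped by 224 gained regions (16.8%), close to the 17.5% of all regions, and 555 (41.5%) overlapped neither kind of gene, against 33.8%.

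Across the autosomes, the share of regions with at least 2 CPM that were gained ran from 0.256% on chromosome 19 (6 regions) and 0.396% on chromosome 16 (8 regions) to 3.72% on chromosome 18 (26 of 699) and 4.50% on chromosome 4 (141 of 3130). Chromosomes 13 and 5 stood at 3.01% each. Chromosome 19 is known for its dense genes, and chromosomes 4, 13 and 18 for their few. Whether the share gained goes with gene density was not tested. The share lost was also lowest on chromosome 19 (0.469%) but was spread less and in another order: it was highest on chromosome 11 (2.02%), and was 1.04% on chromosome 16, 0.77% on chromosome 13, 0.858% on chromosome 18 and 1.12% on chromosome 4.

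**Figure D4:**
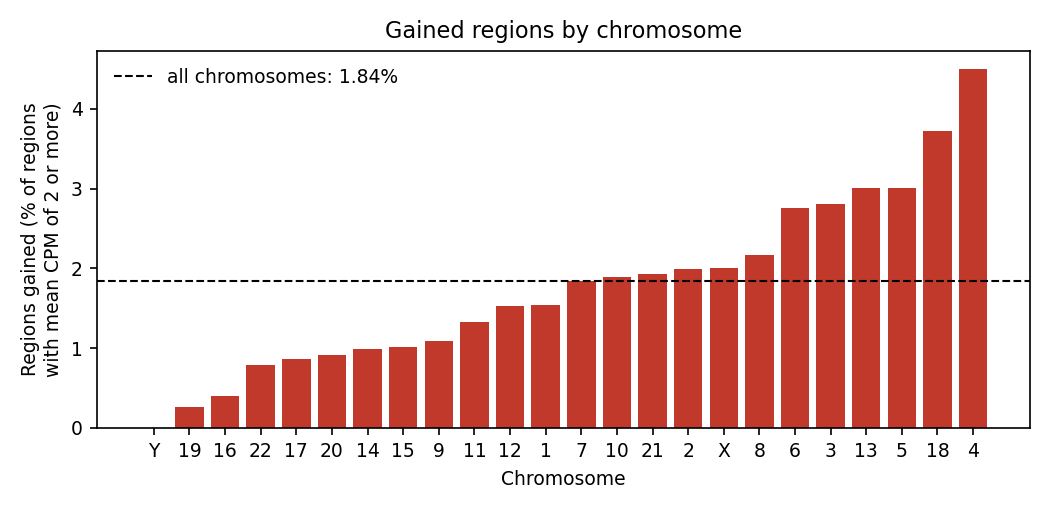
Share (%) of regions with a mean of at least 2 CPM that were gained, by chromosome in rising order; the dashed line is the share over all chromosomes, 1.84%. Chromosome 19 stands lowest among the autosomes at 0.256% and chromosome 4 highest at 4.50%.

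The 1336 regions had 847 different nearest protein-coding genes. Of these, 604 were nearest to 1 gained region and 57 to 4 or more, which together took 305 regions. TENM3, a teneurin that links neurons across synapses, had the most, with 13 of the 86 regions nearest to it, 3 of them inside the gene and the furthest 1894 kb away. Then came EYS, a matrix protein of photoreceptors, with 9 of 37, CADM2 with 8 of 57, and NAALADL2, a relative of glutamate carboxypeptidase II, with 8 of 44. GPC5, a heparan sulfate proteoglycan, had 8 of 89 and BRINP3, a neuronal protein, 8 of 76. DPYD, which breaks down pyrimidines, had 7 of 38, all inside the gene, and CDH12, a type II cadherin, 7 of 32. CDH9, another type II cadherin gene, and SLC10A2, a bile acid transporter gene, also had 7 each, of 28 and 32, none of them inside the gene. CDH9 (158 kb), SLC10A2 (22.4 kb) and BRINP3 (380 kb) are shorter, and the others named here are between 843 and 1987 kb long, and a long gene or an empty surrounding collects more regions of any kind, which is why the number nearest to each is given.

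Within one such gene the gained regions differed in level and in balance. CADM2 held 7 inside it, with NCA means from 1.4 to 25.3 CPM. One of them, chr3:85558717-85559436, measured 1.91, 1.11 and 1.24 CPM under NCA, 4.25, 7.42 and 6.39 CPM under ASO2, and 2.63, 2.11 and 3.48 CPM under ASO10, with every ASO2 library above every ASO10 library. In another, chr3:85424704-85425809, ASO10 was the higher, at 7.31, 12.6 and 9.31 CPM, over ASO2 at 7.95, 7.93 and 6.03 CPM and NCA at 4.34, 4.93 and 4.50 CPM, with the 2 oligonucleotide groups overlapping. The 7 DPYD regions were more even: NCA means were 2.17 to 4.17 CPM, ASO2 folds 2.01 to 2.90 and ASO10 folds 1.51 to 1.87.

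Gained regions sometimes sat side by side. Another gained region lay within 100 kb of 336 of them (25.1%), and the median distance to the nearest other was 337 kb. In 27 places 3 or more followed within 100 kb of each other, holding 86 regions in all. A run begins and ends at gained regions, so the share gained within it is no rate for its surroundings. The run with the most members, chr8:113962102-114106400, had 5 gained regions among 6 with at least 2 CPM, 525 to 669 kb from CSMD3, which encodes a large membrane protein with CUB and sushi domains. Its strongest member measured 17.9, 20.1 and 23.2 CPM under NCA, 28.0, 38.6 and 34.4 CPM under ASO2, and 35.2, 32.1 and 29.2 CPM under ASO10, while its weakest had means of 2.53, 6.57 and 4.23 CPM. A run at chr5:22596529-22683512 had 4 gained among 6 inside CDH12. The other 2 runs of 4 lay near CBLB, a ubiquitin ligase gene (chr3:105901133-106004755, 4 of 7), and IGSF11, an adhesion gene (chr3:118347408-118469616, 4 of 9). In the gene desert beyond TENM3, chr4:180206956-180228978 held 3 gained among 3, the strongest with 13.4, 12.7 and 15.4 CPM under NCA, 29.1, 26.7 and 28.3 CPM under ASO2, and 26.3, 24.9 and 23.1 CPM under ASO10.

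Regions around the gained ones that did not meet the rule were on average slightly higher under ASO2 and close to NCA under ASO10. Within 10 kb of a gained region the median log2 change from NCA of 1308 tested regions was 0.24 under ASO2 and 0.06 under ASO10. From 10 to 50 kb it was 0.16 and 0.04, from 50 to 200 kb 0.09 and 0.03, and beyond 200 kb it was -0.05 and -0.02. Over all tested regions it was -0.02 and -0.01. The share called higher under ASO2 was 14.4% within 10 kb, 9.73% at 10 to 50 kb, 8.24% at 50 to 200 kb and 3% beyond. Under ASO10 these shares were 1.38%, 0.906%, 0.612% and 0.499%. Both log2 changes were above 0 in 46.3% of the neighbours within 10 kb, 41.2% of those at 10 to 50 kb and 32.0% of all tested regions. Among regions with at least 2 CPM these shares were 50.7% (of 891 neighbours), 44.8% and 33.8%. At that level 20.2% of the neighbours within 10 kb were called higher under ASO2, against 7.35% of all. Under ASO10 it was 1.91% against 1.43%. These neighbours were measured in the same libraries as the gained regions, and both contrasts share the NCA libraries, so the gradient is a description.

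Gene lists for neuronal and neuroblastoma functions were read by counting regions no more than 100 kb from a listed gene that was also their nearest. Synaptic adhesion genes (70 genes) had 46 gained regions at 19 genes, 3.44% of the gained and 1.14% of all regions with at least 2 CPM. CADM2 and CDH12 had 7 each, and ADGRL3, PCDH7 (a protocadherin) and TENM3 were among those with 3 each. Ion channels and transmitter receptors (81 genes) had 22 at 14 genes, 1.65% against 0.954%, among them KCNH1 and KCNH5, potassium channel genes, with 3 each. Axon guidance genes (45 genes) had 21 at 11 genes, 1.57% against 0.805%, with EPHA6, an ephrin receptor gene, at 4 and UNC5C, a netrin receptor gene, at 3. Many genes of these 3 lists are long, and the lists were drawn up with results of these data known, so no particular link to them follows.

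Examples from these lists show the range. A region in ROBO2, which encodes a receptor for Slit guidance proteins, chr3:76643489-76644793, held 12.0, 11.8 and 12.8 CPM under NCA, 19.3, 20.5 and 16.3 CPM under ASO2, and 26.5, 20.1 and 27.4 CPM under ASO10. Its ASO10 libraries spread from within to above the ASO2 range. A region in SLIT3, chr5:168897860-168898940, was level between the 2, with 9.19, 4.93 and 6.41 CPM under NCA, 14.4, 17.9 and 17.6 CPM under ASO2, and 16.5, 17.2 and 15.9 CPM under ASO10. The region near SEMA3D, a secreted semaphorin, chr7:85271258-85272374, leaned to ASO2, with 19.3, 18.0 and 12.1 CPM over 10.1, 7.45 and 9.19 CPM under ASO10 and 6.64, 3.95 and 4.38 CPM under NCA.

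Lists of cell identity held few gained regions or none, and only the adrenergic list lay close to its background. The 22 transcription factors of the adrenergic state of neuroblastoma had 4 gained regions, in or near DACH1, EYA1, SATB1 and ZNF536, which is 0.299% of the gained and 0.283% of all regions. The mesenchymal factors (30 genes) had none among 146 regions with at least 2 CPM, the AP-1 factors none among 42, catecholamine genes none among 62 and the neuroblast markers none among 78. At the overall rate of 1.84% each of these small sets would hold few, so a 0 in any of them alone has little weight. The lists with 0 were not tested together. The stress and immune lists held 1 or 2 regions each: 2 for p53 targets (XPC and AEN; 0.150% of the gained and 0.0801% of all regions), 1 for the integrated stress response (TRIB3; 0.0749% and 0.108%) and 1 for the interferon response (DDX60; 0.0749% and 0.0359%). Counts of 1 or 2 do not separate these shares. The marker lists of other cell types had 1 near DCN and 1 near PTPRC, each 0.0749% of the gained and 0.0304% of all regions. There were 0 near the epithelial genes, which had 0.0318% of all regions. These counts are too small to read as well. The TRIB3 region, chr20:373513-374184, lay 6.58 kb from the gene with 4.21, 2.59 and 4.38 CPM under NCA, 8.64, 7.83 and 4.75 CPM under ASO2, and 8.80, 7 and 7.08 CPM under ASO10.

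The 2 oligonucleotides were compared directly, at the same dose and time. The selection set the same lower limit for both and did not use their difference, but it used the same libraries. Shares of the gained regions beside those of unselected regions are therefore descriptions. The ASO2 mean was above the ASO10 mean in 1114 of 1336 gained regions and below it in 222. By edgeR's log2 difference, ASO2 was the higher in 81.7% of the gained regions and in 49.7% of all regions with at least 2 CPM. All ASO2 libraries stood above all ASO10 libraries in 474 regions, and the reverse held in 11. The share of all regions with such a separation was not computed, so these counts have no background. The median log2 difference, ASO2 minus ASO10, was 0.30 in the gained regions, with the middle 50% from 0.07 to 0.59, and -0.0017 in all tested regions. By the same limits taken for 1 oligonucleotide at a time, 7400 regions were gained under ASO2 and 2252 under ASO10.

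In edgeR's test of ASO2 against ASO10, 96 gained regions (7.19%) were called higher under ASO2, against 2.55% of all tested regions and 3.97% of those with at least 2 CPM. None was called higher under ASO10, where the background was 0.682% of all tested regions and 1.07% of those with at least 2 CPM. At an unadjusted p under 0.05 in the same test the counts were 365 and 6, for which no background share was computed. DESeq2 called 68 of the gained regions higher under ASO2, which is 5.09%, against 1.84% of all tested regions. With limma-voom 26 were called, 1.95% against 1.55% of all regions in that fit. For the alternative fits no share was computed over regions with at least 2 CPM, so an excess at that level cannot be read from them. Leaving out any 1 of the 6 oligonucleotide libraries left 39 to 62 calls, the fewest without ASO2 replicate 2 and 40 without ASO10 replicate 2. These calls were 2.92% to 4.64% of the gained regions, where 1.18% to 1.66% of all tested regions were called higher under ASO2.

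The 5 regions with the lowest p had means 2.00 to 2.17 times as high under ASO2 as under ASO10. In chr1:208984780-208986205, 598 kb from CAMK1G, a calmodulin-dependent kinase gene, NCA held 8.81, 6.17 and 8.32 CPM, ASO2 23.7, 28.2 and 21.3 CPM, and ASO10 11.7, 12.8 and 10.7 CPM. The log2 difference was 1.05 with a standard error of 0.16 (edgeR adjusted p = 1.28e-07). In chr2:209638268-209639141, inside MAP2, NCA held 6.25, 5.55 and 5.62 CPM, ASO2 15.9, 23.4 and 17.8 CPM, and ASO10 11, 8.56 and 7.70 CPM, a difference of 1.06 with a standard error of 0.18 (edgeR adjusted p = 3.24e-06). The others lay near CYLC2, a sperm head protein gene (difference 1.09), DUSP10, a MAP kinase phosphatase gene (0.98), and ZFPM2, a cofactor of GATA factors (1.03). In each of the 5 the groups did not overlap and ASO10 lay between NCA and ASO2. ASO10 above NCA was set by the selection, and ASO2 above ASO10 by the choice of these regions, so the order is no finding. Against NCA, ASO10 was called in the region near ZFPM2 (edgeR adjusted p = 0.00788). It was not called in those near CAMK1G, CYLC2 and DUSP10 or inside MAP2 (edgeR adjusted p of 0.0568 to 0.0870).

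For 1240 of the 1336 gained regions the test made no call between the 2 oligonucleotides. In the CADM2 region of highest level the log2 difference was -0.04 with a standard error of 0.12 (edgeR adjusted p = 0.925), and in the DLG4 promoter region it was 0.04 with a standard error of 0.17 (edgeR adjusted p = 0.953). In the ROBO2 region, where ASO10 was higher on average, it was -0.41 with a standard error of 0.15 and did not pass (edgeR adjusted p = 0.0998). A p above the threshold does not show equal levels; these standard errors leave room for moderate differences in either direction.

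**Figure D5:**
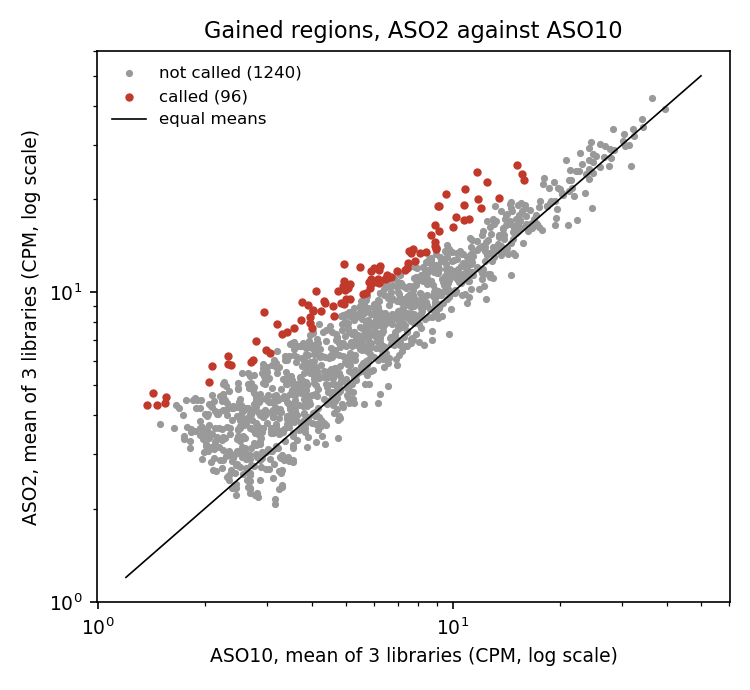
Mean CPM of 3 libraries under ASO10 (x axis) and ASO2 (y axis) for the 1336 gained regions, both on log axes; red points are the 96 called between ASO2 and ASO10 by edgeR, grey points the 1240 others, and the line marks equal means. Most points, 1114, lie above the line, and all 96 called points do.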

How the data were processed

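ATAC-seq was measured in 9 libraries, 3 for each of NCA, ASO2 and ASO10. The authors deposited raw read counts for a single set of regions shared by all libraries, with no normalization. The submitters' processing notes name hg38, FastQC, Bowtie2 2.2.6, SAMtools, MACS2 2.1.2 and DESeq2 1.42.0, without their roles. Read filters, Tn5 offsets, whether reads or fragments were counted and how regions were merged are not given in the sources used here, and each could shift levels and widths. RNA is the molecule named in the labels, although tagmented genomic DNA is what their protocol gives.

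Counts were divided by library totals to give CPM for the selection. Differences were tested on the counts with edgeR 4.0.16 (R 4.3.3; filterByExpr by group, TMM, robust quasi-likelihood fit on all 9 libraries) at a Benjamini-Hochberg threshold of 0.05, and the method was tested on simulated data. Log2 changes are edgeR's estimates. Alternatives were limma-voom (limma 3.58.1), DESeq2 1.42.0, other scalings, filters, limits and leaving out each library. Genes and promoter sequences came from RefSeq tables of GRCh38.p14 (20033 protein-coding genes on the chromosomes used); distances run to the nearest gene end, and coordinates are as in the region names. The promoter table used here holds no starts on chromosome 8. Sequences of regions away from promoters were not analysed here.

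Regions given by library were the 8 with the highest smaller fold, the 6 with the highest mean, up to 8 at gene ends, 6 at promoters, the 5 with the lowest p between ASO2 and ASO10, those nearest to the 8 genes with most gained regions, 5 runs with the most gained regions, up to 3 per gene list, and those nearest the limits; of these, examples are printed. The regions and lists were chosen with earlier results of these data known.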

Additional observations from a re-analysis of the deposited data

Results flagged for a closer look

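Between the 2 oligonucleotides, 96 of the 1336 gained regions differed by edgeR's test, each of them higher under ASO2. This is listed because that test compared ASO2 and ASO10 with each other and not each with the control. The selection used the values of both in the same libraries. The share called, set beside regions that were not selected, is therefore a description. Most of the gained regions were not called, and limma-voom called 26. That is 1.95% of them, where 1.55% of all tested regions were called higher under ASO2.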

How the results depend on the processing

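The selection depends on its limits. A mean of at least 5 CPM left 680 gained regions, a looser fold limit, midway between 1 and 1.5, gave 2407 and a fold limit of 2 gave 288, by construction. Leaving out 1 library gave 1330 to 2267. Scaling by TMM factors gave 1512, of which 1334 were among the 1336. The share within 1 kb of a gene end was 3.95% with the looser fold limit, 0 with a limit of 2, and 1.18% to 2.80% with 1 library left out. Within 5 kb of a gene end the share of the gained regions was 5.54%. The share of all regions within 5 kb was not computed, so this value has no background. Regions called under each oligonucleotide numbered 234 with limma-voom in place of 399, and 189 to 361 with 1 library left out. Gained regions called between ASO2 and ASO10 numbered 26 with limma-voom, and 39 to 105 with 1 library left out. The latter were 2.92% to 7.86% of the gained regions. Among all tested regions, 1.18% to 2.41% were then called higher under ASO2. Over all tested regions, calls in either direction were 6691 for ASO2 against NCA (4110 to 6457 with 1 library left out), 1296 for ASO10 against NCA (442 to 1425) and 3855 for ASO2 against ASO10 (2087 to 3981). The cause of these shifts was not tested, beyond the fewer libraries in each.

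Libraries with the same replicate number did not deviate together (correlations of -0.0363 to 0.0126, against -0.0214 to 0.0307 for other numbers), so the numbers were not taken as pairs. With a replicate block, the calls were 6312, 3442 and, for ASO10, 983; 352 gained regions were called under each oligonucleotide and 89 between them.

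Among 168 alternatives for 14 regions called between ASO2 and ASO10, 35 lost the call, and none of the 1512 values of named regions changed direction while called. Low counts limit the regions of high fold, whose NCA levels rest on few counts.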

Other observations

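Some gene deserts held several gained regions outside the 8 genes with values by region. Both cases here were picked after their values were seen. Regions over 1 Mb from a gene end made up 4.94% of the gained and 4.49% of all regions with at least 2 CPM. CDH9, a type II cadherin gene, was the nearest gene of 7 gained regions out of 28 with at least 2 CPM, none inside the gene and the furthest 935 kb away, with folds of 1.60 to 3.10 under ASO2 and 1.52 to 2.35 under ASO10. On chromosome 10, chr10:9060076-9097771 held 3 neighbouring gained regions, between 985 and 1022 kb from GATA3, a transcription factor of sympathetic neurons, with folds of 1.99 to 3.99 under ASO2 and 1.61 to 2.06 under ASO10. GATA3 was the nearest gene of 4 gained regions out of 31 with at least 2 CPM (12.9%). Over the 57 genes nearest to 4 or more gained regions, which were listed for that number, this share ran from 7.58% to 33.3%.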
